A study of Homo sapiens with 2 samples.

Results

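BCL2A1, a survival gene of the BCL2 family, was 2.29-fold lower in MDA-MB-231 breast cancer cells that overexpressed the microRNA miR-203 than in the same cells with an empty vector, by its 1 probe set. By their brightest probe sets the other 9 family genes showed log2 differences smaller than 0.3, as did 84.8% of all genes, while dimmer probe sets of BCL2, MCL1 and BCL2L11 differed by more. The family was taken as 10 genes, 5 that keep cells alive (BCL2, BCL2A1, BCL2L1, BCL2L2 and MCL1) and 5 that promote death (BAK1, BID, BCL2L11, BAD and BIK), out of 19775 genes on the arrays. A probe set, the group of probes that reports one transcript region, was used if the annotation gave it exactly 1 of these symbols, and each gene was represented by its probe set with the highest mean of both arrays. All 10 genes were found, with 32 probe sets between them. BCL2L2 was included because it is a published target of miR-203. For the family as a whole, 1 probe set annotated to several symbols that include a family gene was left out.

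The cells were MDA-MB-231, an established human triple-negative breast cancer line with mesenchymal features, infected with a virus that carried either an empty control vector or miR-203. Both were stable lines grown in serum-containing medium, and each was measured on 1 Affymetrix array. Whether a line was 1 clone or a pool is not stated in the labels, and overexpression itself could not be checked, since 0 probe sets were annotated to the miR-203 gene. The comparison asks which genes miR-203 regulates in these cells. Since each line had 1 array, the spread between replicates is unknown, and the differences below carry no test and no p-value. Effects of miR-203 and of the handling of each culture and array cannot be told apart. The number of arrays limits the precision of every value.

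The BCL2 family controls the mitochondrial route to apoptosis. Survival members hold the pore-forming proteins BAX and BAK in check at the outer mitochondrial membrane, and BH3-only proteins such as BIM, BID, BAD and BIK respond to stress by binding the survival members or by activating the pore formers. When the outer membrane opens, cytochrome c reaches the cytosol and caspases are activated. A microRNA lowers the level or translation of mRNAs that pair with its seed, a short stretch near its 5′ end.

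The sequence below is the mature 3p arm of miR-203a from RefSeq (build GRCh38.p14, chromosome 14, start 104117469, end 104117490, plus strand). It is shown because it is the arm known as miR-203. The labels do not say which arm was measured or expressed. The capitals mark the seed, bases 2 to 8.
hsa-miR-203a-3p: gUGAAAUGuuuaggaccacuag
A site that pairs with this seed reads CAUUUCA in the mRNA. No transcript sequence was used here, so sites in the 10 family genes were not searched.

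Values are log2 expression, and a difference is always the value of the miR-203 array minus that of the empty-vector array. A probe set passed the filter when at least one array gave it 5.38 or more, which is the median of all values other than those of control probe sets. This level is a convention and not a detection limit. All 10 genes passed by their main probe set with both values above that level, and 13304 of all genes passed. As a guide to the scatter at a given brightness, the middle 95% of differences among the 500 passing genes nearest in mean level is given. That range describes these arrays and does not replace replicates. Levels of different genes are not compared, because probe sets differ in brightness for the same amount of RNA.

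Of the 10 genes, 1 differed by at least 1.5-fold and the same 1 by at least 2-fold. Over all 19775 genes, 1.92% differed by at least 1.5-fold and 0.298% by at least 2-fold in either direction. At 2-fold 0.217% of all genes were lower in the miR-203 line. The differences of the 10 genes ran from -1.19 to 0.17 with a median of -0.057, and those of all genes had a median of 0. Differences were below 0 in 8 of 10 family genes and in 45.7% of all genes. By the brightest probe sets, differences under 0.3 in size were found in 9 of 10 family genes and in 84.8% of all genes, so small differences were the rule on these arrays.

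**Figure D1:**
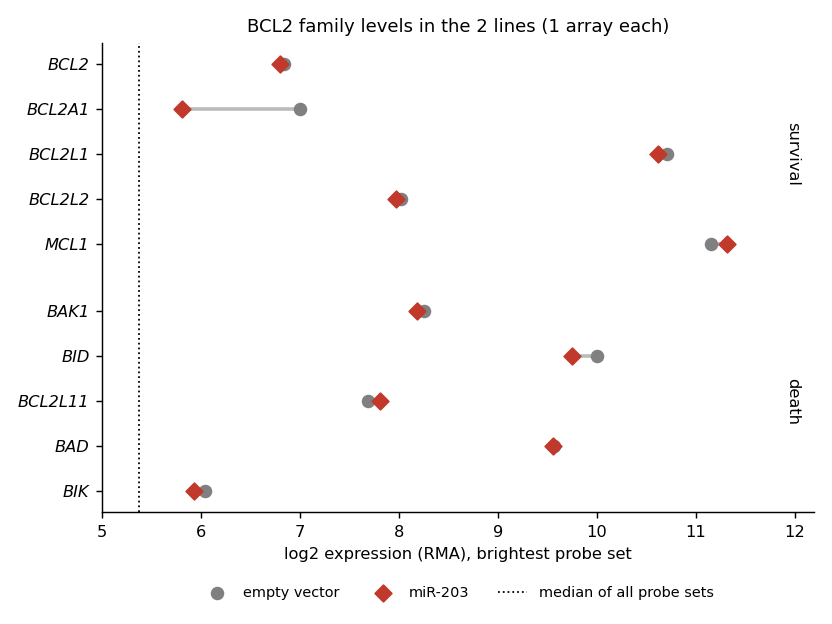
Log2 expression (x axis) of the 10 BCL2 family genes on the empty-vector array (grey circles) and the miR-203 array (red diamonds), each by its brightest probe set, with survival genes above and death genes below. BCL2A1 moves from 7.00 to 5.81 toward the dotted median of all probe sets, and the paired symbols of the other genes lie within 0.3 of each other.

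Among the survival genes, BCL2A1 stood apart. It encodes BFL-1, also called A1, a survival protein best known from blood cells and from melanoma. Its level was 7.00 with the empty vector and 5.81 with miR-203, a difference of -1.19. The 500 genes nearest in level spanned -0.56 to 0.49, so BCL2A1 lay outside the range of its neighbours. It was the 18th lowest difference among the 13304 genes that passed and the 21st lowest among all 19775. Both of its values lay above the filter level. BCL2A1 was measured by 1 probe set (205681_at), so no second measurement of the gene on these arrays stands beside it.

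**Figure D2:**
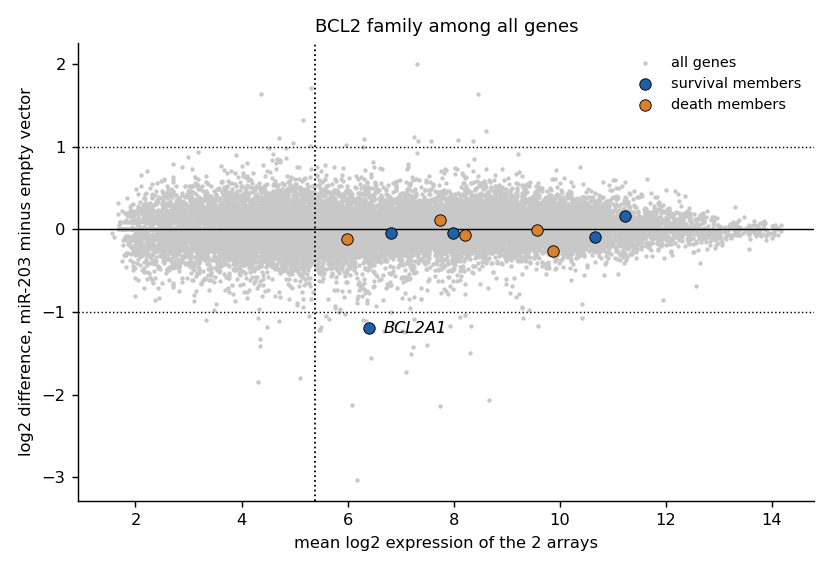
Log2 difference (y axis) against mean log2 expression (x axis) for all 19775 genes (grey), with the 5 survival genes in blue and the 5 death genes in orange; dotted lines mark 2-fold and the filter level. BCL2A1 lies at -1.19, below the cloud of genes of similar level, and the other 9 family genes lie inside it.

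Markers of other cell types were examined beside BCL2A1, since the gene is abundant in blood cells. Of 7 blood cell markers measured, 4 were above the filter level on each array. The log2 levels of all 7 summed to 36.7 with the empty vector and 37.0 with miR-203, and those of the 4 alone to 23.9 and 23.7. PTPRC (CD45), CD14 and LYZ lay below that level on both arrays, PTPRC at 3.65 and 3.98 and CD14, near the level, at 5.33 and 5.22. The T cell marker CD3E (5.91 and 5.82), the B cell marker CD79A (5.70 and 5.46), ITGAM and HBB lay above it on both. The largest drop among the blood markers that passed was 0.24 on the log2 scale, for CD79A. Of 6 endothelial markers, 3 were above the level with the empty vector and 2 with miR-203. The log2 levels of all 6 summed to 32.8 and 31.2, and those of the 3 that passed to 19.8 and 17.4. The endothelial receptor genes TIE1 and KDR differed by -1.55 and -0.75. TIE1 had 1 of its 2 probe sets passing, and KDR went from 5.51 to 4.76, which is below the level. PECAM1 was at -0.11. CDH5, VWF and CLDN5 lay below the level on both arrays, with differences above 0 (0.28, 0.25 and 0.24). The part of these genes in the BCL2A1 difference was not tested. Fewer cells with a gene and less RNA per cell cannot be told apart in such samples.

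BCL2L2 encodes BCL-W, a survival protein, and is the family gene published as a miR-203 target. Its level was 8.02 with the empty vector and 7.97 with miR-203, a difference of -0.041 and thus 1.03-fold lower. Genes of similar level spanned -0.47 to 0.40, so the values of the lines lay close together for their brightness. Its second probe set, below the filter level on both arrays, gave 4.61 and 4.53, a difference of -0.085. The mRNA of this target was therefore not lower by 1.5-fold on these arrays, and protein was not measured.

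MCL1, a short-lived survival protein that many cells need continuously, was the survival gene with a difference above 0. By its brightest probe set the level was 11.15 with the empty vector and 11.32 with miR-203, a difference of 0.17. Of its 6 probe sets, 4 were higher in the miR-203 line, 1 was lower and 1 held the same value on both arrays. The probe sets 214057_at and 214056_at went from 7.48 to 7.90 and from 6.84 to 7.17, differences of 0.42 and 0.33. The second brightest, 200798_x_at, was at 10.51 and 10.50, a difference of -0.017. The size of the MCL1 difference thus depended on the probe set, and 200798_x_at was the one probe set of MCL1 below 0.

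BCL2 is the founding member of the family and the target of venetoclax. By its brightest probe set its level was 6.84 and 6.79 in the empty-vector and miR-203 lines, a difference of -0.043. The next probe sets in brightness gave -0.027 and 0.071. The dimmest, 207005_s_at, was at 4.94 and 5.57, a difference of 0.63, and the first of these values lay below the filter level. It was the other of the 2 family probe sets past 1.5-fold, beside that of BCL2A1, and it had no counterpart in the 3 brighter probe sets.

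BCL2L1 encodes BCL-XL and, by alternative splicing, the shorter BCL-XS that promotes death. Its brightest probe set, 212312_at, gave 10.71 with the empty vector and 10.62 with miR-203, a difference of -0.095. The other 3 probe sets were higher in the miR-203 line, by 0.073, 0.14 and 0.14. The probe sets of BCL2L1 therefore disagreed in sign, with all differences between -0.095 and 0.14. As a group the survival genes had a median of -0.043, with 4 of 5 below 0, and of their 17 probe sets 9 were higher, 7 lower and 1 equal.

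Among the death genes no gene differed by 1.5-fold (0 of 5, against 1.92% of all genes). Their median was -0.072, with a range from -0.26 to 0.12. Of their 15 probe sets 11 were lower in the miR-203 line, against 46.2% of all 41091 probe sets with 1 symbol. Probe sets of one gene share its RNA, so they do not count as separate genes.

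BID links death receptors to mitochondria, since caspase-8 cuts it into an active fragment. Its level was 10.01 with the empty vector and 9.75 with miR-203, a difference of -0.26, the lowest of the death genes. The other probe sets went from 9.31 to 9.04 and from 8.86 to 8.72, differences of -0.27 and -0.14. All 3 probe sets were lower in the miR-203 line and all were well above the filter level. Genes of similar level spanned -0.31 to 0.41, so BID lay inside the range, near its lower end. Of the 7 family genes with several probe sets, BID and BCL2L2 were the 2 whose probe sets all had one sign.

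BCL2L11 encodes BIM, a BH3-only protein that binds all the survival members and is made in several splice forms. By its brightest probe set, 225606_at, the level was 7.69 with the empty vector and 7.81 with miR-203, a difference of 0.12. The next in brightness, 1558143_a_at, 1553096_s_at and 1553088_a_at, were lower in the miR-203 line by differences of -0.34, -0.30 and -0.23. Of the 3 dimmest, 222343_at was at -0.042, 1555372_at at 0.38 and 208536_s_at, below the filter level on both arrays, at 0.27. The 7 probe sets of BCL2L11 thus split into 3 higher and 4 lower, and their median, -0.042, had the opposite sign to the brightest. No direction can be given for BCL2L11 as a gene. Which splice form each probe set reports was not examined here.

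BAK1 encodes BAK, a pore former of the outer mitochondrial membrane. It was measured by 1 probe set, at 8.25 with the empty vector and 8.18 with miR-203, a difference of -0.072. BAD is a BH3-only protein that growth factor signals switch off by phosphorylation. It was at 9.57 and 9.56, a difference of -0.011, and its other probe sets gave -0.063 and 0.15. BIK, a BH3-only protein of the endoplasmic reticulum, was measured by 1 probe set, at 6.04 and 5.92, a difference of -0.12. All of these lay well inside the ranges of genes of similar level, the narrowest of which was -0.28 to 0.43, for BAD.

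**Figure D3:**
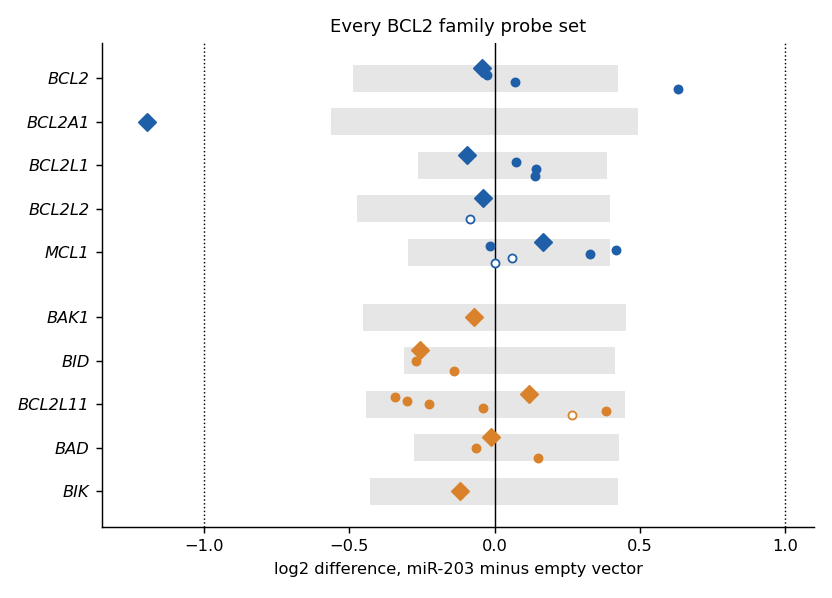
Log2 difference (x axis) of each of the 32 BCL2 family probe sets, survival genes in blue and death genes in orange. Diamonds are the brightest probe set of a gene, open circles lie below the filter level on both arrays, grey bars give the middle 95% of differences among the 500 genes nearest in level, and dotted lines mark 2-fold. BCL2A1 at -1.19 is the one diamond outside its bar, and the 7 probe sets of BCL2L11 fall on both sides of 0.

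The region before the start of BCL2A1 is shown because it is the family gene with the 2-fold difference. RefSeq promoter entries matched 7 of the 10 family genes, and those of BCL2L2, MCL1 and BIK were not matched. The 250 bases before the annotated start of BCL2A1 (build GRCh38.p14, chr15:79971197-79971446, minus strand) are written 5′ to 3′, with matches to TATAAA and TCATGTG in capitals.
BCL2A1: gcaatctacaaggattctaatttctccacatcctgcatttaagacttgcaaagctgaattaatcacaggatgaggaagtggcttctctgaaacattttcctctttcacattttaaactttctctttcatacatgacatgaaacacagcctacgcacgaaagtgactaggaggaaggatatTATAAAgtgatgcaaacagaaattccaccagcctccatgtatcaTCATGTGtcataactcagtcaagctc
Both strands of the 250 bases were searched for each motif except the NF-kB consensus, which was searched on the strand shown alone. The motifs named here do not overlap in this window. TATAAA, the core of a TATA box, begins 70 bases before the start, and 10.7% of the 35116 promoter windows of this length hold it. TCATGTG, the M-box bound by the melanocyte factor MITF, begins 26 bases before the start, and 2.52% of all windows hold it. The AP-1 motif TGANTCA (6.57% of windows) and the forkhead motif GTAAACA (2.98%) are not in this window. The NF-kB consensus was not found on the strand searched, and its share, 7.46% of windows, also counts that strand alone. The forkhead motif, bound by FOXO factors, was matched in the window of BCL2L11, where it begins 223 bases before the start. Among the 13 windows of the 7 matched family genes TCATGTG was found in that of BCL2A1 alone. These matches describe letters and not bound sites.

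Genes that act around the family were described from 7 further lists with 82 genes. Of these, 75 were measured, 71 passed the filter and 4 lay below its level on both arrays, and 7 were not analysed here. Among the 71, 36 were above 0 and 33 below. At 1.5-fold 1 was higher and 0 were lower, against 0.722% and 1.08% of all passing genes. No gene of the 71 differed by 2-fold (0.376% of all passing genes). All passing genes had a median of 0.013.

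Transcription factors known to act on family genes had a median of 0.056 over 12 genes, and held the gene past 1.5-fold. This was MITF, which is known to switch on BCL2A1 and BCL2 in melanocytes. Its level was 10.71 with the empty vector and 11.31 with miR-203, a difference of 0.60, against a span of -0.31 to 0.39 for its neighbours in brightness. Its other passing probe set gave 0.55. MITF was higher in the line in which BCL2A1 was lower, and the part of MITF in that difference was not tested. FOXO1 and FOXO3, which activate BCL2L11, were at 0.36 and 0.18, and STAT5A, which activates BCL2L1, was at -0.37. The 4 passing probe sets of FOXO3 ran from -0.037 to 0.19. The NF-kB genes NFKB1 and RELA, known activators of BCL2A1, were at -0.0099 and -0.038, so their mRNA levels lay close together in the lines. Protein and activity of these factors were not measured, and their part in the differences of the family genes was not tested.

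Further BCL2 relatives had a median of 0.030 over 12 passing genes, with 7 above 0 and 5 below. BNIP3L, a mitophagy receptor, went from 9.73 to 10.16, a difference of 0.43, against a span of -0.31 to 0.41 for its neighbours in brightness. Its second probe set gave 0.36. PMAIP1 (NOXA), a BH3-only protein that binds MCL1 and BFL-1, went from 10.60 to 10.89, a difference of 0.30, with its other probe set at 0.37. HRK, another BH3-only gene, was at 0.35, with its empty-vector value, 5.09, below the filter level, and BNIP2 was at -0.27. BAX, the pore former that works beside BAK, was at 8.60 and 8.55, a difference of -0.052. The pore formers BAX, BAK1 and BOK all differed by less than 0.1 by their main probe sets, with BOK at 0.045.

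IAP proteins, which block caspases, and their mitochondrial antagonists had a median of -0.10 over 7 genes, the lowest of the 7 lists. DIABLO (SMAC), which leaves mitochondria and neutralises IAPs, went from 11.32 to 10.95, a difference of -0.37, against a span of -0.30 to 0.40 for its neighbours in brightness. The IAP genes BIRC7 and BIRC2 were at -0.14 and -0.10. BIRC5 (survivin), a published miR-203 target, was at -0.271, against a span of -0.267 to 0.36 for its neighbours in brightness. It lay just below that span, and its 4 probe sets ran from -0.29 to -0.11. Mitochondrial and other partners of the family had a median of -0.070 over 8 genes. TMBIM6 (BAX inhibitor 1) was at -0.19, the BCL2-binding co-chaperone BAG1 at -0.18 and BCAP31, a caspase-8 substrate of the endoplasmic reticulum, at -0.18. The autophagy protein BECN1, which BCL2 binds, was at 0.17, with its other passing probe set at -0.016.

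Caspases and apoptosome genes had a median of 0.037 over 9 genes. CASP9, the caspase of the apoptosome, and CASP6, an executioner caspase, were both at 0.19. The initiator CASP2 was at -0.16 and DFFB, the nuclease that cuts DNA in apoptosis, at -0.28. Death receptor pathway genes had a median of 0 over 7 passing genes. CFLAR, the inhibitor of caspase-8, was at 0.23 by the brightest of 8 passing probe sets that ran from -0.21. The TNF receptor gene TNFRSF1A was at 0.19, the TRAIL receptor gene TNFRSF10B at 0.14 and FADD, the adaptor that recruits caspase-8, at -0.14. Regulators of the family's proteins had a median of 0.00011 over 16 genes, with 8 above 0 and 8 below. FBXW7 and BTRC, ubiquitin ligase subunits that mark MCL1 for degradation, were at 0.37 and 0.25. USP9X, which removes ubiquitin from MCL1, was at 0.18, and DYNLL2, a dynein light chain that binds BMF, at -0.24.

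**Figure D4:**
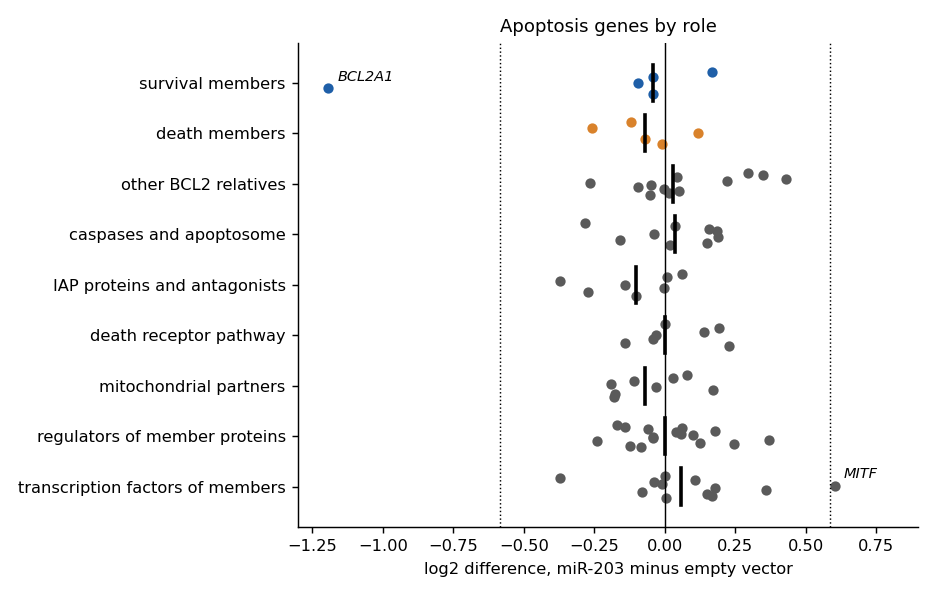
Log2 difference (x axis) of the passing genes of the survival and death groups and of the 7 other lists (rows), with 1 point per gene, a black bar at the median of each list and dotted lines at 1.5-fold. BCL2A1 at -1.19 and MITF at 0.60 are the points past 1.5-fold, and the medians of the rows lie between -0.10 and 0.056.

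The arrays had nearly the same distribution, with sorted values that differed by at most 0.095. RMA brings arrays to one distribution, so this says nothing about their quality. Of 8 markers of mesenchymal breast lines, such as VIM, AXL and CD44, 8 were above the filter level on both arrays, with differences from -0.27 to 0.35. The epithelial cadherin CDH1 and the progesterone receptor gene PGR lay below that level on both. Of 12 luminal markers the other 10 passed, all with both values above the level. Among them were KRT18 (12.03 and 11.85), KRT8 (10.04 and 9.93), EPCAM (8.35 and 8.25) and GATA3 (7.89 and 7.76). The estrogen receptor gene ESR1 was at 6.27 and 6.30, with 3 of its 9 probe sets passing. AGR2 (1.64), ELF3 (0.72) and KRT19 (-1.07) differed by more than 1.5-fold. Of 7 fibroblast markers 5 passed, with THY1 at -0.84. The part of these marker differences in the values of the family genes was not tested.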

How the data were processed

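Expression was measured on 1 Affymetrix array for each of 2 MDA-MB-231 lines. The deposited values are log2 expression per probe set, made by the authors with RMA per the submitters' processing notes. RMA corrects background, brings the arrays to one distribution and summarises probes by median polish, so a shift of all mRNAs together would be removed. No version of RMA is named, and the log2 scale was inferred from the range of the values. Of 54675 probe sets, 62 controls were left out, 41091 had exactly 1 symbol in the platform annotation, 1801 had several, and 11721 were unnamed here.

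The main value of a gene was its probe set with the highest mean of both arrays. Differences, medians and counts past 1.5-fold and 2-fold were computed with Python 3.11.15, pandas 2.3.3 and statsmodels 0.14.6, and the scripts were tested on simulated data. The family genes and the lists were chosen with earlier results of these data known. Named were all 10 family genes, the 4 passing genes of each list with the largest differences, and, after their values were seen, BAX, BOK, NFKB1, RELA and the markers given.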

Additional observations from a re-analysis of the deposited data

How the results depend on the processing

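No paired analysis was possible because there was a single array in each group, and for that reason no array was left out in turn. There were 7 alternatives: the median difference of all probe sets of a gene, leaving out _x_at and _s_at probe sets, centring on the median, removing a loess trend, raising values to the filter level, and filters at the median and at the 75th percentile. BCL2A1 was at -1.20 with the trend removed. The other alternatives could not change its -1.19, since it has 1 probe set with both values above the filter level and the median of all genes is 0, so they say nothing about its stability. The counts of family genes past 1.5-fold and past 2-fold were 1 and 1 except with the filter at the 75th percentile, which removed BCL2A1 and left 0 and 0 of 7 genes. The median of the survival genes ran from -0.066 with the trend removed to 0.022 with the median over probe sets, a change of sign, and that of the death genes from -0.10 to -0.041. With the median over probe sets BCL2 (0.022), BCL2L1 (0.11) and BCL2L11 (-0.042) had the opposite sign. Without _x_at and _s_at probe sets MCL1 was at 0.42 and BID at -0.14. In place of a replicate SD, a value was said to move if it changed by more than 0.10, the median SD between a gene's probe sets. Of 67 values of single family genes, 4 did so. Centring, raising values to the filter level and the filters could not change the value of any family gene they kept. The choice of probe sets could not change BCL2A1, BAK1 or BIK, which have 1 each. The count of 4 in 67 is therefore no measure of stability.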
